A study of Mus musculus with 22 samples.

Results

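The 10 genes described here take part in energy-spending cycles other than heat production by UCP1: Ckb, Gatm, Gamt, Slc6a8 and Alpl of the creatine cycle, the calcium pump gene Atp2a2, the glycerol kinase gene Gk, Pm20d1 of N-acyl amino acid metabolism, and the UCP1 relatives Ucp2 and Ucp3. They were chosen by name, with earlier results of these data known. All 10 had a row in the count table of white adipose tissue (WAT, 47643 rows) and in that of striatum (55341 rows). Ucp1 itself was kept as a reference.

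The libraries came from wild-type C57BL/6J mice, labelled as males of 8 weeks, and set hypothyroid mice against mice given thyroid hormone (TH). Control libraries are labelled as treated for 2 weeks with propylthiouracil (PTU, a drug that blocks hormone synthesis), and there were 4 in WAT and 2 in striatum. TH libraries, 4 in each group, were taken 6 h and 24 h after TH from WAT and 12 h and 24 h after TH from striatum. TH was a single intraperitoneal injection of T3 (the active hormone) with T4 (its precursor). The labels of the TH libraries do not mention PTU, the study lists PTU in the food for the WAT animals and no such treatment for the striatum animals, and no depot is named for the WAT. Nothing says whether replicates were single animals, so p-values measure the spread between these libraries, which may be technical.

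A futile cycle runs a reaction forward and back, so that ATP is spent and heat is released with no net product. In thermogenic fat, creatine is phosphorylated by creatine kinase B (CKB) and the phosphate is removed again by the phosphatase TNAP, the product of Alpl. Creatine is made by GATM and GAMT and taken up by the carrier SLC6A8. SERCA2, encoded by Atp2a2, pumps calcium into the endoplasmic reticulum, from which it leaks back through calcium channels. Glycerol kinase lets an adipocyte put glycerol freed by lipolysis back into triglyceride. PM20D1 is a secreted enzyme that joins fatty acids to amino acids, and such lipids can uncouple mitochondria. UCP2 and UCP3 are mitochondrial carriers related to UCP1, and the part of UCP2 and UCP3 in heat production is disputed. TH, bound to its nuclear receptors, is a known inducer of thermogenic genes.

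Ucp3 lies at chr7:100472990-100486432 and Ucp2 at chr7:100493337-100502020, both on the plus strand of GRCm38 (GENCODE M21), with 6904 bases between them. Gk is at chrX:85701937-85776819 and Gamt at chr10:80258151-80261012, both on the minus strand, and Pm20d1 at chr1:131797381-131821473 on the plus strand. Atp2a2 (chr5:122453513-122502225), Ckb (chr12:111669361-111672338), Gatm (chr2:122594467-122611303) and Alpl (chr4:137741733-137796384) are on the minus strand, and Slc6a8 (chrX:73673150-73682502) is on the plus strand. Exons of other genes overlapped 3 of the 10 on the opposite strand. Dnajb13 covered 305 bases (4.36%) of the exons of Ucp2, Gm14764 covered 84 bases of Gk and Gm43361 covered 83 bases of Atp2a2. The strand setting of the counting is not given in the sources used here, so reads in those bases cannot be assigned to 1 strand.

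The TH receptor binds AGGTCA half-sites, best known as a direct repeat with 4 bases between them (DR4). The 250 bases before the RefSeq start of Ucp3, Ucp2, Gk and Ucp1 are shown 5′ to 3′ along the gene's strand (GRCm38.p6). AGGTCA on either strand is in capitals. Ucp3, Ucp2 and Gk were the members called higher at both times in WAT. The windows are chr7:100472741-100472990, chr7:100493108-100493357, chrX:85776820-85777069 and chr8:83290098-83290347, of which Gk alone is on the minus strand.
Ucp3: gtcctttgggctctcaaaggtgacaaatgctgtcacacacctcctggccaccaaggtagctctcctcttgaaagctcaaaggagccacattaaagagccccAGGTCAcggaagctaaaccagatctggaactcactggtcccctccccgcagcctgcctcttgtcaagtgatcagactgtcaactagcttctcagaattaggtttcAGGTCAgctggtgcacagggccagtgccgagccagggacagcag
Ucp2: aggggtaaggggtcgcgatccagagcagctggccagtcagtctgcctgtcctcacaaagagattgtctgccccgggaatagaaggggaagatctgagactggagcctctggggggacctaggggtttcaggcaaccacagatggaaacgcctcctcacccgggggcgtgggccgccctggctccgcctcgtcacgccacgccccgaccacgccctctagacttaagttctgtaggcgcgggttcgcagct
Gk: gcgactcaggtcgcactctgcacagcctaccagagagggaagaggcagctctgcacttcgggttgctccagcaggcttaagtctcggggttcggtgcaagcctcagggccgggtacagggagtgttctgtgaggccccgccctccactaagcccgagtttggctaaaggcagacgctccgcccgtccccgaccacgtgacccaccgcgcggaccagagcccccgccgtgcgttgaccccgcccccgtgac
Ucp1: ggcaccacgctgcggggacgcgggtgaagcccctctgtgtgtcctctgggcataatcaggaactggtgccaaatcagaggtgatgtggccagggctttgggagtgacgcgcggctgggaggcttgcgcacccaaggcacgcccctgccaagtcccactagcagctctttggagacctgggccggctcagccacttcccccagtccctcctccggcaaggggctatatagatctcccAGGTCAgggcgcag
The window of Ucp3 held 2 half-sites, beginning 149 and 44 bases before the start, and that of Ucp1 held 1, beginning 14 bases before it. Neither Ucp2 nor Gk had one. Among 32851 RefSeq windows of 250 bases, 14.02% held at least 1 AGGTCA and 1.36% held 2 or more. Of the other members in the promoter table, Gatm and the second start of Alpl had 1 half-site each, and the first start of Alpl, Gamt and Ckb had none. A DR4 with perfect half-sites (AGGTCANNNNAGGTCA, either strand) was in none of the windows of these genes, and in 5 (0.0152%) of the 32851. A match is a string of letters and not a bound site.

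WAT libraries held 17285956 to 26946573 counts and striatum libraries 8044701 to 10147160. WAT carried adipocyte markers (8 genes, 24499 to 32132 in summed CPM, counts scaled to a common library total, without TH), and epididymal markers summed to at most 0.524 CPM. Skeletal muscle markers (14 genes) stood far apart between WAT libraries, from 199 to 28419 CPM without TH, 89.4 to 5092 at 6 h and 2067 to 14819 at 24 h, and none of the 14 was called. Leukocyte markers (10 genes, none called) summed to 460.0 to 698, 394 to 793 and 642 to 769.9 CPM. Their log2 change was positive for 4 of 10 at 6 h and 8 of 10 at 24 h. Markers of stratified epithelium (8 genes) summed to at most 172 CPM, with 3 of 7 tested lower at 24 h. All striatum libraries are labelled male, but only 4 of 10 had more than a few counts of Y-linked genes. These were 1 of 2 without TH, 3 of 4 at 12 h and none of 4 at 24 h. Counts of Xist, scaled to library size, ran from 22070 to 33693 in the 6 others and from 2.73 to 17.8 in these 4. The male label is therefore in doubt for those 6. One striatum library, 24 h replicate 2, had 238 CPM of striatal projection neuron markers (8 genes) and 2922 CPM of cortical excitatory neuron markers (10 genes). Striatal markers in the other libraries summed to 3284 to 4789 CPM without TH, 1729 to 2899.5 at 12 h and 2126 to 4525 at 24 h, and cortical markers to 632 to 1016, 1243 to 1831 and 821 to 1706. The PTU and 12 h libraries did not overlap in either sum, although none of these 18 genes was called at 12 h or 24 h.

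In WAT, Ucp3, Ucp2 and Gk rose within 6 h of TH. At 24 h these 3 genes were still called higher than without TH, and Pm20d1 had risen as well. Gamt, the enzyme of the last step of creatine synthesis, had fallen. For Gk, 24 h replicates 1 and 4 were close to the PTU libraries. Leaving out 1 library kept the 6 h calls of Gk and Ucp2 in 2 and 3 of 8 fits. The 24 h call of Gk was kept in 4 of 8. Ucp3 went to 3.28 times its level without TH at 6 h and 5.47 times at 24 h. The other creatine genes and Atp2a2 did not pass the test at either time. At 6 h, 3 of 10 genes were called (edgeR quasi-likelihood F test, adjusted p under 0.05), all higher, where 7.23% of 17928 genes tested were called, 4.18% higher and 3.05% lower. At 24 h, 5 of 10 were called, 4 higher and 1 lower, where 17.1% of the genes tested were called, 7.45% higher and 9.62% lower. The libraries of the 2 groups did not overlap for 3 of the 10 at 6 h and 4 of the 10 at 24 h, against 13.9% and 19.3% of all genes. The median log2 change of the 10 genes was 0.19 at 6 h and 0.33 at 24 h, against -0.03 and -0.00199 over all genes tested. Because the 10 genes were chosen with earlier results of these data known, these shares and medians describe them and are not a test of the set. Both times are set against the same PTU libraries. In bulk tissue, a change in the share of a cell type and a change in RNA per cell cannot be told apart.

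**Figure D1:**
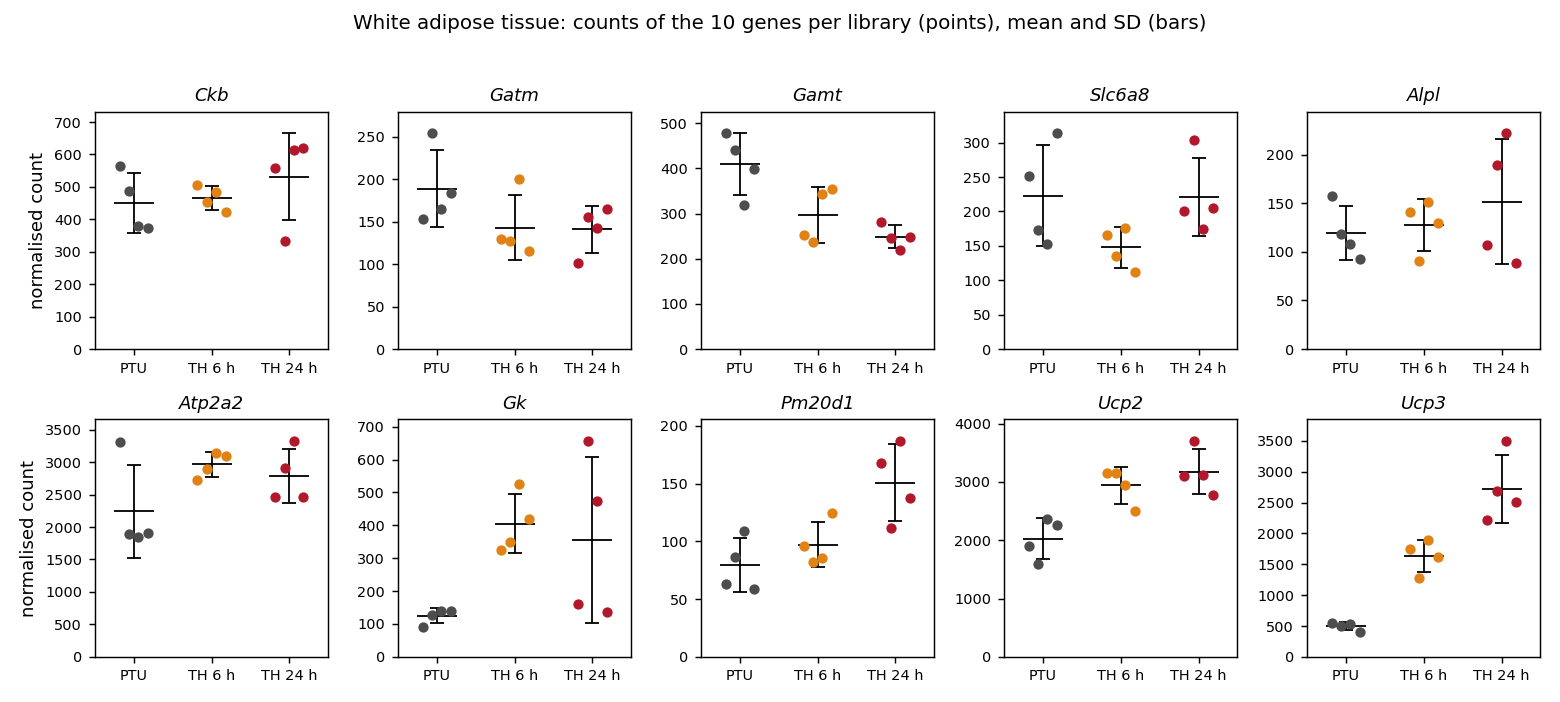
Normalised counts (y axis, linear from 0) of the 10 genes in each WAT library (points) by group (x axis), with the mean and SD of 4 libraries. Ucp3 ran from 409 to 549.5 without TH, 1284 to 1901 at 6 h and 2219 to 3499 at 24 h, with no overlap, whereas the 24 h libraries of Gk spanned 135 to 657.

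Ucp3 is best known from skeletal muscle and brown fat, where its mRNA responds to fasting and to TH. Its normalised counts (counts scaled to a common library size within the tissue) were 549.5, 503, 531 and 409 in PTU replicates 1 to 4. At 6 h they were 1746, 1284, 1901 and 1614, and at 24 h 2219, 2682, 3499 and 2509. All 3 groups were separate from each other. The log2 change was 1.71 ± 0.16 (SE, adjusted p = 5.22e-05) at 6 h and 2.45 ± 0.16 (SE, adjusted p = 3.82e-06) at 24 h. The rise from 6 h to 24 h was 0.74 ± 0.15 (SE, adjusted p = 0.0157), which made Ucp3 the only one of the 10 called between the times, where 7.41% of all genes were called (3.07% higher and 4.35% lower) and 21.8% had groups that did not overlap. All 3 calls held when any 1 library was left out. With the mean log2 level of the muscle markers in the model, the rise from 6 h to 24 h was 0.73 ± 0.18 (SE, adjusted p = 0.0551), while the changes against PTU were 1.72 and 2.45. Among the PTU libraries, replicate 4, with 28419 CPM of muscle markers, had the lowest Ucp3 count, 409. Replicate 1, with 11194 CPM, had the highest, 549.5.

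Ucp2, found in many tissues and in immune cells, rose less. PTU replicates 1 to 4 had 1894, 1595, 2357 and 2265 normalised counts, the 6 h libraries 3159.7, 3161, 2943 and 2496, and the 24 h libraries 3103, 3703, 3124 and 2781. Every TH library was above every PTU library. Ucp2 had a log2 change of 0.54 ± 0.14 (SE, adjusted p = 0.0338) at 6 h and 0.65 ± 0.14 (SE, adjusted p = 0.00701) at 24 h, folds of 1.45 and 1.57, and between the times it was 0.11 ± 0.14 (SE, adjusted p = 0.657). The call at 24 h held without any 1 library, that at 6 h in 3 of 8 such fits, with adjusted p up to 0.0851 (without PTU replicate 2). The 6 h call was also lost with the replicate block (adjusted p = 0.0781) and with the 2 groups alone (adjusted p = 0.0670). Leukocyte markers, none called, had a median log2 change of -0.05 at 6 h and 0.45 at 24 h. Their part in the Ucp2 values was not tested.

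Gk, the kinase that traps glycerol in the cell, rose early and then diverged between libraries. PTU replicates 1 to 4 had 92.2, 128, 141 and 139 normalised counts and the 6 h libraries 325, 349.9, 525 and 419, with no overlap. The 24 h libraries had 160.1, 657, 473 and 135, so that replicate 3 was within the 6 h range and replicate 2 above it, while replicates 1 and 4 were close to the PTU libraries, replicate 4 lying below 2 of them. On the log2 scale Gk rose by 1.70 ± 0.43 (SE, adjusted p = 0.0333) at 6 h and 1.51 ± 0.43 (SE, adjusted p = 0.0296) at 24 h. Leaving out 1 library kept the call in 2 of 8 fits at 6 h and 4 of 8 at 24 h, with adjusted p up to 0.0821 (without PTU replicate 2) and 0.0902 (without 24 h replicate 2, log2 change 1.03), and the 24 h call was also lost with the 2 groups alone (adjusted p = 0.0690).

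The same 2 libraries were high for Ucp1. Ucp1 had 4.80, 20.4, 268 and 101 normalised counts in PTU replicates 1 to 4, 1641, 2441, 3941 and 3107 at 6 h and 2877, 11616, 12352 and 3321 at 24 h. Its log2 change was 4.80 ± 0.90 (SE, adjusted p = 0.00808) at 6 h and 6.24 ± 0.96 (SE, adjusted p = 0.0011) at 24 h, with no overlap against PTU. Dio2, the deiodinase that makes T3 from T4 inside the cell, was also split at 24 h, with 113, 813, 602 and 70.8 normalised counts. Ucp3 was highest in 24 h replicates 3 and 2 too, but its lowest 24 h library was still above every 6 h library.

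**Figure D2:**
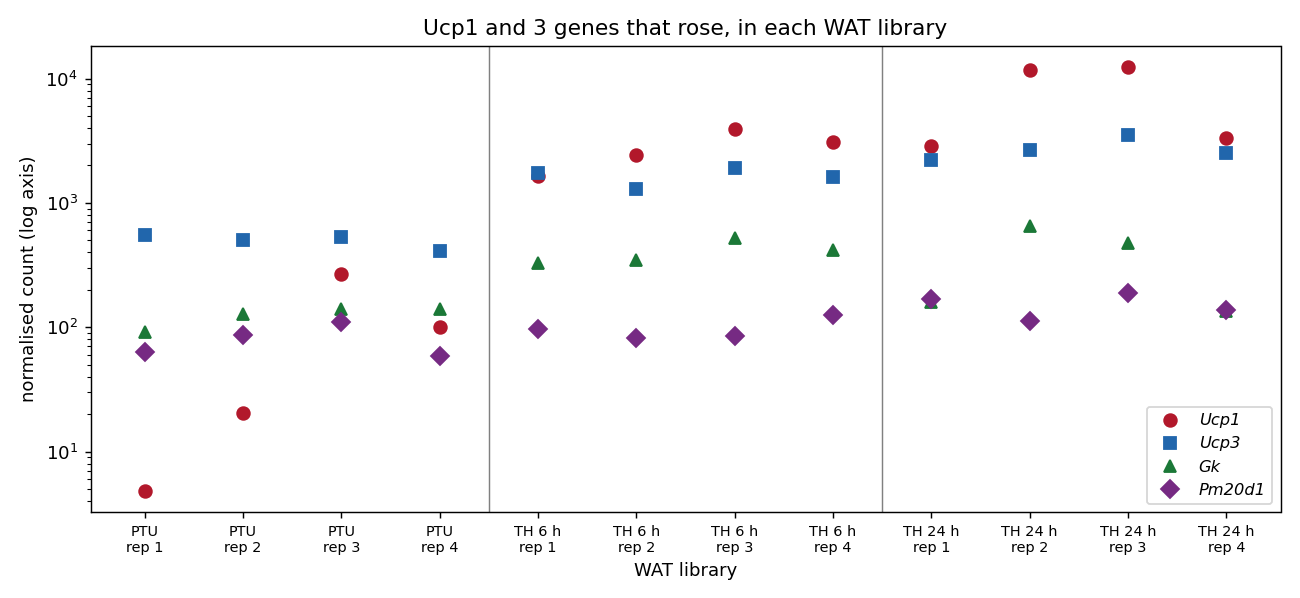
Normalised counts (y axis, log scale) of Ucp1, Ucp3, Gk and Pm20d1 in each of the 12 WAT libraries (x axis, replicates 1 to 4 of each group). At 24 h, Ucp1 and Gk were both highest in replicates 2 and 3, whereas Pm20d1 was lowest in replicate 2 (112).

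Pm20d1 was a low-count gene that rose late. PTU replicates 1 to 4 had 63.4, 86.2, 109 and 59.0 normalised counts, the 6 h libraries 96.2, 82.0, 85.7 and 125, and the 24 h libraries 168, 112, 187 and 137. The 24 h libraries were all above the PTU libraries, the nearest pair being 112 and 109, and the 6 h libraries overlapped with both. The log2 change was 0.29 ± 0.23 (SE, adjusted p = 0.451) at 6 h, 0.92 ± 0.23 (SE, adjusted p = 0.016) at 24 h, a fold of 1.89, and 0.63 ± 0.22 (SE, adjusted p = 0.107) from 6 h to 24 h. The call at 24 h was lost without 24 h replicate 3 (adjusted p = 0.0525) and kept without any other library. With the muscle markers in the model the step from 6 h to 24 h was 0.92 ± 0.22 (SE, adjusted p = 0.0444).

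Atp2a2 had the highest mean level per length of the 10 genes before TH, and 1 library decided its result. PTU replicates 1 to 4 had 3317, 1894, 1844 and 1911 normalised counts, the 6 h libraries 2730.2, 2892, 3138 and 3095, and the 24 h libraries 2455, 2913, 3325 and 2460.2. Every TH library was above PTU replicates 2 to 4, and PTU replicate 1 was above all but 1 of the TH libraries. The log2 change was 0.40 ± 0.18 (SE, adjusted p = 0.185) at 6 h and 0.31 ± 0.18 (SE, adjusted p = 0.25) at 24 h, neither called. Without PTU replicate 1 it was 0.67 (adjusted p = 0.00431) and 0.56 (adjusted p = 0.00453). Calls over all genes also rose without that library, to 1898 and 4264 from 1296 and 3060, the most of any such fit. PTU replicate 1 had 11194 CPM of muscle markers, and PTU replicate 4, with 28419 CPM, had 1911 Atp2a2 counts. With the muscle markers in the model the changes were 0.50 (adjusted p = 0.136) and 0.28 (adjusted p = 0.303).

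Of the 5 creatine genes, Gamt changed. PTU replicates 1 to 4 had 477, 442, 319 and 399.6 normalised counts, the 6 h libraries 252, 237, 344 and 355, and the 24 h libraries 282, 246, 219 and 249. All 24 h libraries were below all PTU libraries, and the 6 h libraries overlapped with both. The log2 change was -0.46 ± 0.16 (SE, adjusted p = 0.1) at 6 h and -0.72 ± 0.16 (SE, adjusted p = 0.0101) at 24 h, a level 1.64-fold lower, and the 24 h call held without any 1 library. Adipocyte markers moved in the same direction at 24 h: 6 of 8 were lower, and their sum was 15281 to 19992 CPM against 24499 to 32132 without TH, and their part in the fall of Gamt was not tested.

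Gatm, which makes the precursor that GAMT methylates, spanned 153 to 254 normalised counts without TH, 115 to 200.3 at 6 h and 101 to 165 at 24 h. Its log2 changes of -0.40 ± 0.22 and -0.42 ± 0.22 (SE) had the sign of those of Gamt but did not pass the test (adjusted p = 0.266 and 0.205). Ckb spanned 374 to 566, 423 to 507 and 335 to 619.7, with log2 changes of 0.05 ± 0.19 and 0.23 ± 0.19 (SE, adjusted p = 0.9 and 0.417). The 95% interval of the 24 h change of Ckb ran from -0.17 to 0.64. Alpl, at 92.2 to 158, 90.1 to 151 and 88.5 to 222, had log2 changes of 0.10 ± 0.28 and 0.35 ± 0.28 (SE, adjusted p = 0.858 and 0.429), with an interval of -0.27 to 0.96 at 24 h. The ranges of these 3 genes overlapped between all groups.

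Slc6a8, the creatine carrier, is also abundant in skeletal muscle, which stores most of the body's creatine. PTU replicates 1 to 4 had 252, 174, 153 and 314 normalised counts, the 6 h libraries 166, 136, 177 and 113, and the 24 h libraries 201, 305, 174 and 205. For Slc6a8 the log2 change was -0.60 ± 0.24 (SE, adjusted p = 0.153) at 6 h and -0.01 ± 0.24 (SE, adjusted p = 0.981) at 24 h. The 3 libraries richest in muscle markers (11194, 14819 and 28419 CPM) had 252, 305 and 314 Slc6a8 counts, and the other 9 had 113 to 205. With the muscle markers in the model the 6 h change was -0.29 ± 0.16 (SE, adjusted p = 0.315). Whether muscle in the samples caused these Slc6a8 values was not tested.

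**Figure D3:**
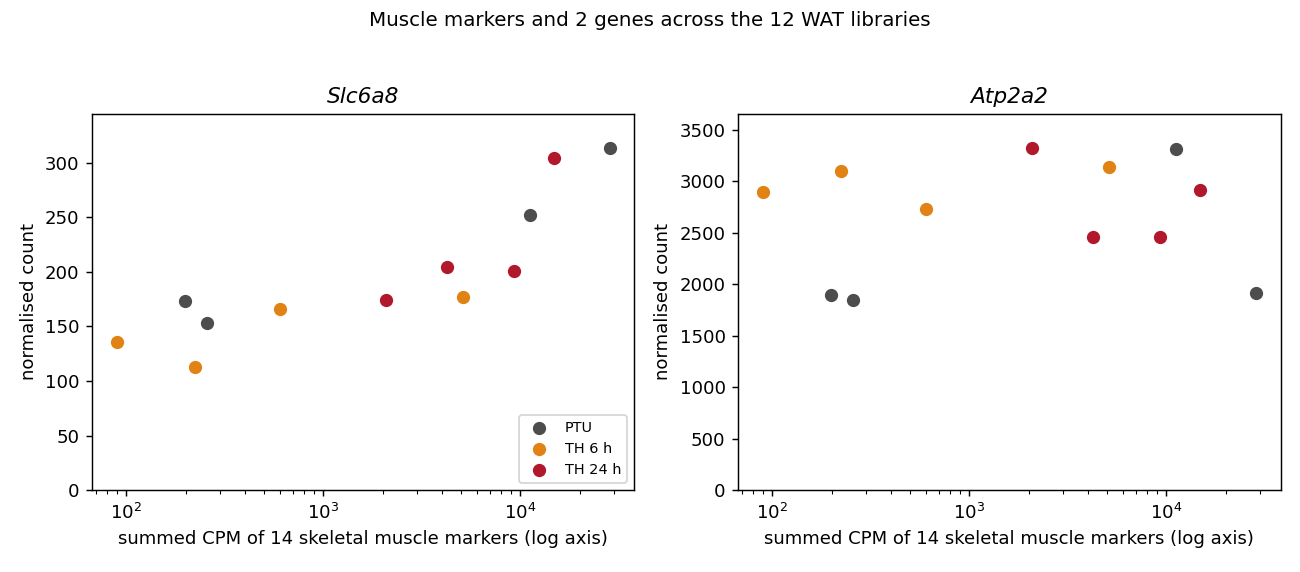
Normalised counts (y axes, linear from 0) of Slc6a8 and Atp2a2 against the summed CPM of 14 skeletal muscle markers (x axes, log scale) in the 12 WAT libraries, coloured by group. Slc6a8 was highest in the 3 libraries richest in muscle markers, and PTU replicates 1 to 4 had 3317, 1894, 1844 and 1911 normalised counts of Atp2a2.

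**Figure D4:**
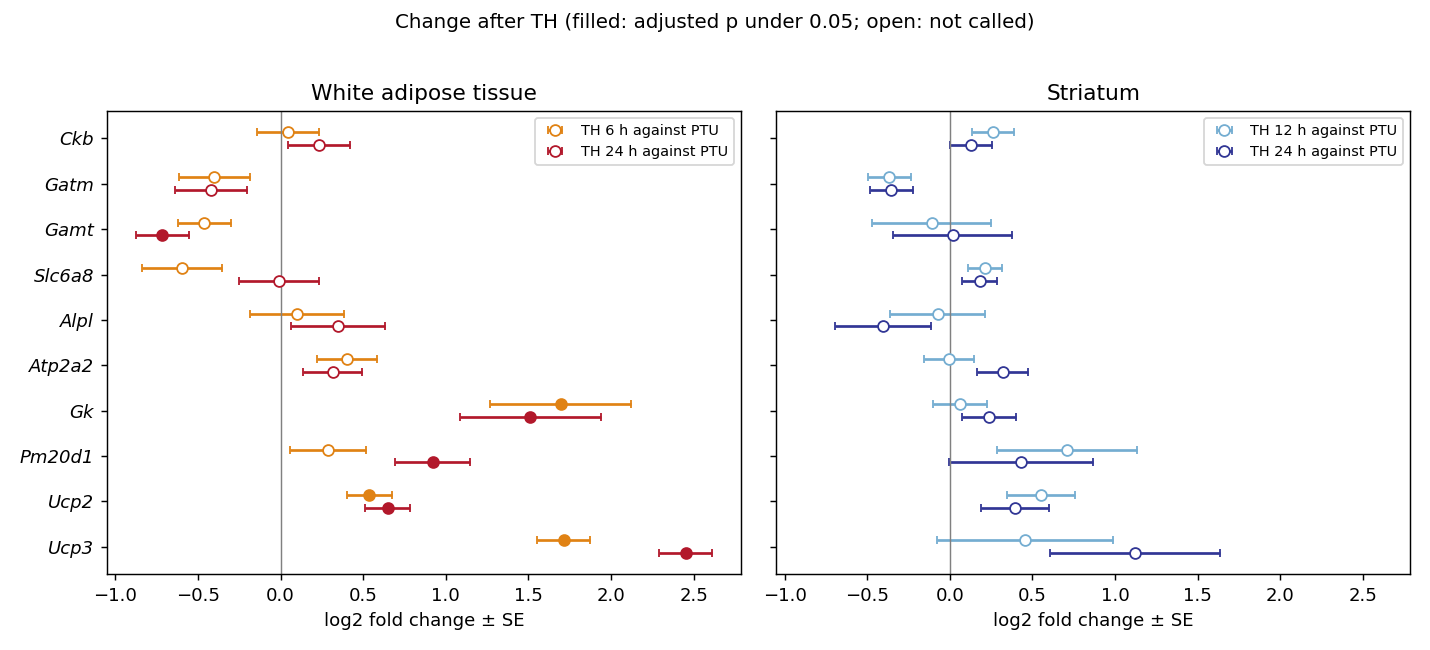
Log2 fold change against PTU (x axis, ± SE) of the 10 genes (y axis) in WAT at 6 h and 24 h and in striatum at 12 h and 24 h. Filled points passed an adjusted p under 0.05: 3 in WAT at 6 h, 5 in WAT at 24 h and none in striatum.

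The rest of each cycle was read from lists of pathway genes, apart from the 10. In the glycerol and triglyceride list (19 other genes, 17 tested), 2 were higher at 6 h, and at 24 h 3 were higher, 2 lower and 12 not called, where 7.23% and 17.1% of all genes were called at these times. Gpd2, the mitochondrial glycerol-3-phosphate dehydrogenase, had log2 changes of 1.24 ± 0.20 (SE, adjusted p = 0.00247) at 6 h and 2.28 ± 0.20 (SE, adjusted p = 2.41e-05) at 24 h. Gpat4, which starts glycerolipid synthesis, rose by 1.12 ± 0.16 (SE, adjusted p = 0.00134) at 6 h and 0.54 ± 0.16 (SE, adjusted p = 0.0339) at 24 h. Pnpla2, the first lipase of triglyceride breakdown, rose by 0.63 ± 0.19 (SE, adjusted p = 0.042) at 24 h. Dgat1, which completes triglyceride synthesis, and Acsl1, which activates fatty acids, had changes of -1.17 ± 0.13 (SE, adjusted p = 9.39e-05) and -1.91 ± 0.26 (SE, adjusted p = 5.05e-04) at 24 h. The median log2 change of the tested genes of this list was 0.17 at 6 h and -0.11 at 24 h. The 24 h calls of Pnpla2 and Gpat4 held in 5 and 9 of 15 alternative fits.

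In the calcium list (21 other genes, 19 tested), Letm1, a mitochondrial cation exchanger, was higher and Casq2, a calcium store protein of muscle, was lower at both times. At 24 h, 2 were higher, 2 lower and 15 not called (17.1% of all genes were called), with a median of 0.19 (0.10 at 6 h). Letm1 changed by 0.76 ± 0.12 (SE, adjusted p = 0.00272) and 1.63 ± 0.12 (SE, adjusted p = 9.17e-06), and Itpr2, a channel that releases calcium from the endoplasmic reticulum, by 1.09 ± 0.13 (SE, adjusted p = 2.17e-04) at 24 h. Casq2 changed by -2.16 ± 0.43 (SE, adjusted p = 0.0104) and -2.13 ± 0.43 (SE, adjusted p = 0.00545), and Pln, an inhibitor of SERCA2, by -1.27 ± 0.40 (SE, adjusted p = 0.0476) at 24 h, from 37.3 ± 19.5 to 15.3 ± 4.76 normalised counts (SD, n = 4). The Pln call held in 5 of 15 alternative fits. Atp2a1 and Sln, the muscle forms of the pump and its regulator, were not called and spread widely, Atp2a1 from 352 to 56440.3 normalised counts among PTU libraries alone.

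None of the 4 other creatine genes tested (of 6) was called at 6 h or 24 h, with medians of -2.34 and -0.26. Over all genes tested, 7.23% and 17.1% were called at these times. Ckm, the muscle creatine kinase, is itself one of the muscle markers and spanned 235 to 74290.4 normalised counts without TH. In the N-acyl amino acid list (6 other genes, 5 tested), Aspa, which cleaves N-acetylaspartate, rose by 0.58 ± 0.15 (SE, adjusted p = 0.0358) at 6 h and 1.55 ± 0.15 (SE, adjusted p = 4.91e-05) at 24 h, and the other 4 were not called (medians 0.48 and 0.11). The 6 h call of Aspa held in 9 of 15 alternative fits. Of the uncoupling proteins and related carriers (6 other genes), Ucp1 alone was called at each time (medians 0.16 and 0.17). Of 11 tested genes of a thermogenic reference list that includes Ucp1, 4 were higher at 6 h (4.18% of all genes) and 6 at 24 h (7.45%). None was lower, and the medians were 0.78 and 1.28. The 4 higher at 6 h were Ucp1, Dio2, Ppargc1a and Ppara, the last named after its value was seen. Ppargc1a, the coactivator of mitochondrial genes, rose by 3.10 ± 0.18 (SE, adjusted p = 1.24e-06) at 6 h and 2.38 ± 0.18 (SE, adjusted p = 8.87e-06) at 24 h, and Dio2 by 5.33 ± 0.79 (SE, adjusted p = 0.00184) and 5.32 ± 0.80 (SE, adjusted p = 8.96e-04). Cox7a1, a respiratory chain subunit, was higher by 2.07 ± 0.53 (SE, adjusted p = 0.0182) at 24 h.

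Levels of different genes were compared as CPM per kilobase of exon (GENCODE M21). Without TH the order in WAT was Atp2a2 (17.2 ± 5.50), Ucp2 (13.5 ± 2.34), Gamt (13.2 ± 2.21), Ucp3 (7.40 ± 0.922), Ckb (7.26 ± 1.49), Gatm (2.93 ± 0.701), Slc6a8 (1.99 ± 0.659), Alpl (1.38 ± 0.321), Gk (0.752 ± 0.136) and Pm20d1 (0.526 ± 0.153), as means ± SD of 4 libraries. Ranges of neighbours in this order overlapped except between Gamt and Ucp3, between Ckb and Gatm, and between Alpl and Gk. Ucp1, at 2.80 ± 3.43 without TH, was between Gatm and Slc6a8. At 24 h Ucp1 led with 215 ± 146, and Ucp3 came first among the 10 genes with 40.5 ± 8.15, above Atp2a2 (21.4 ± 3.20) and Ucp2 (21.2 ± 2.56) with no overlap, while Pm20d1 was still the lowest (0.999 ± 0.220).

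In striatum Atp2a2 and the creatine genes other than Alpl led, and Ucp3 and Pm20d1 were the lowest of the 10. Without TH, Atp2a2 stood at 129.9 ± 30.6 CPM per kilobase, Ckb at 65.8 ± 5.48, Gatm at 31.7 ± 4.79, Slc6a8 at 13.6 ± 0.855 and Gamt at 7.21 ± 2.67 (mean ± SD of 2 libraries), each with a range apart from the next. Ucp2, Gk and Alpl had 2.94 ± 0.351, 2.60 ± 0.432 and 2.32 ± 0.778, with overlapping ranges. Ucp3 and Pm20d1 were close to the limit of 10 normalised counts on average that a gene needed to be tested. Over all 10 striatum libraries Ucp3 had 5.66 to 24.1 normalised counts and Pm20d1 7.91 to 27.3, and Ucp1 had at most 2.24 and was not tested. The levels of the tissues stand side by side only, since each table was normalised alone and 235 pairs of rows agreed within 2% in WAT and 0 in striatum.

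None of the 10 genes was called in striatum at 12 h or 24 h by edgeR, where 0.96% and 0.348% of 15827 genes tested were called. At an unadjusted p under 0.05 there were 2 of the 10 at 12 h and 1 at 24 h, against 20.2% and 9.63% of all genes, and DESeq2 called none either, with no adjusted p for Ucp3 and Pm20d1 at 12 h. The 2 groups did not overlap for 4 genes at 12 h and 3 at 24 h, against 36.4% and 18.2% of all genes. The median log2 change was 0.14 and 0.21, against 0.00760 and 0.0164 over all genes tested.

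Gatm was lower in all 8 TH libraries of striatum than in both PTU libraries. It had 991 and 800.2 normalised counts in PTU replicates 3 and 6, 764, 755, 596 and 666 at 12 h and 737, 717, 613 and 735 at 24 h. The log2 changes were -0.37 ± 0.13 (SE, adjusted p = 0.157) and -0.35 ± 0.13 (SE, adjusted p = 0.415). Markers of oligodendrocytes and endothelium (7 genes) summed to 2877 to 4145 CPM without TH, 2059 to 2839 at 12 h and 1754 to 3754 at 24 h, with 1 of the 7 (Slco1c1) called lower at 12 h and none at 24 h. Their part in the Gatm values, and that of the neuron markers, was not tested. Ucp2 had 177 and 209.7 without TH, 308, 234, 302 and 292 at 12 h and 233, 187, 262 and 336 at 24 h, with log2 changes of 0.55 ± 0.21 (SE, adjusted p = 0.176) and 0.40 ± 0.21 (SE, adjusted p = 0.583). In a fit of the 12 h and PTU libraries alone Ucp2 was called (adjusted p = 0.0444). That fit called 1442 genes over all, against 152 in the shared fit. Ucp3 had 7.34 and 5.94, 5.66, 14.7, 9.06 and 7.28 and 12.7, 8.97, 11.9 and 24.1, so that the 24 h libraries were all above the PTU libraries by a few counts, with a log2 change of 1.12 ± 0.51 (SE, adjusted p = 0.522) at 24 h. Atp2a2 had 6197 and 8669 without TH and 9413, 9851, 8881 and 8954 at 24 h, with 0.32 ± 0.15 (SE, adjusted p = 0.537). For Gk the log2 changes were 0.06 ± 0.16 (SE, adjusted p = 0.864) and 0.24 ± 0.16 (SE, adjusted p = 0.684). With the Y-linked counts as a term none of the 10 was called, and the changes at 12 h were -0.37 for Gatm (adjusted p = 0.214) and 0.60 for Ucp2 (adjusted p = 0.192).

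**Figure D5:**
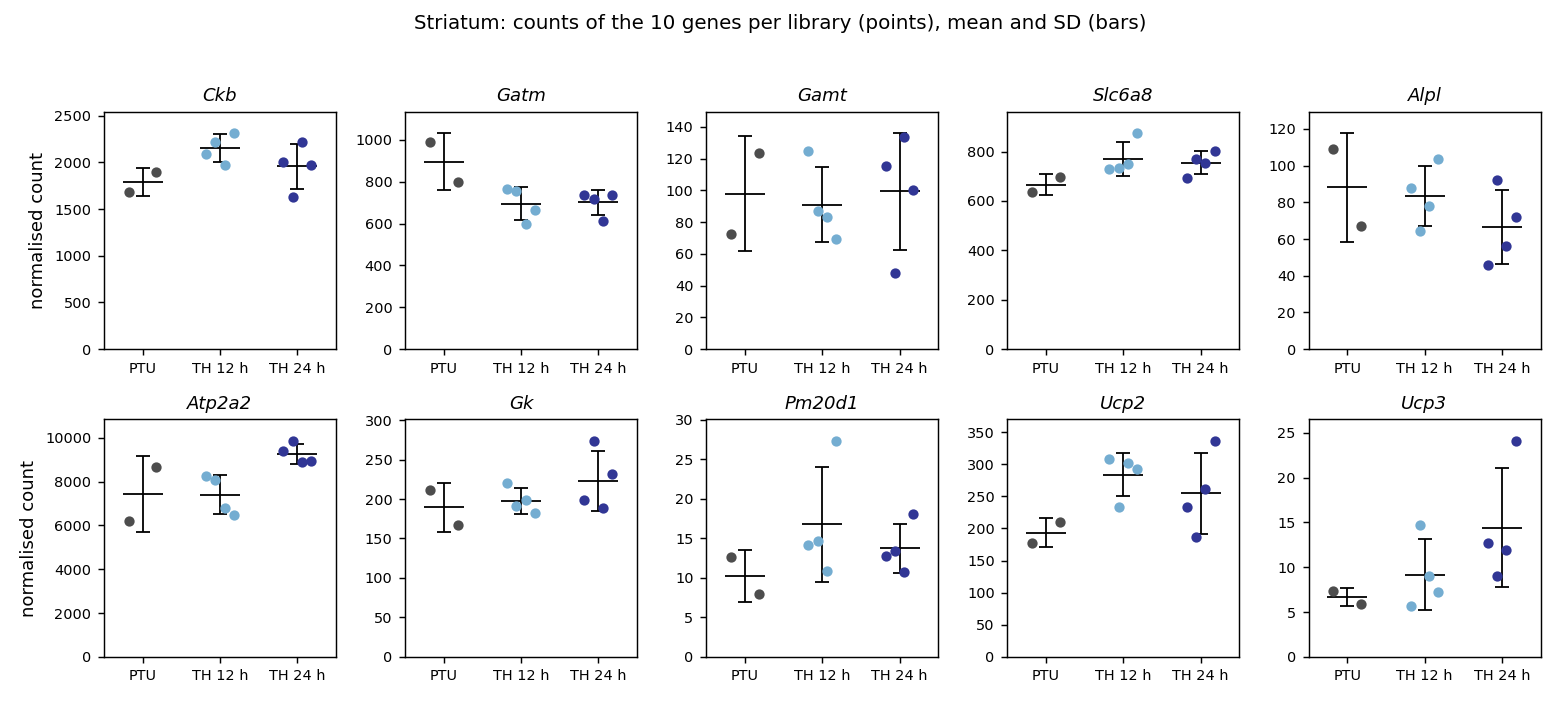
Normalised counts (y axis, linear from 0) of the 10 genes in each striatum library (points) by group (x axis), with the mean and SD of 2 libraries without TH and 4 at each time. Gatm lay at 800.2 to 991 without TH against 596 to 764 and 613 to 737 after TH, and Ucp3 did not exceed 24.1.

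The tissues were compared in 1 fit of all 22 libraries, as the 24 h change in WAT minus that in striatum. None of the 10 differences was called by edgeR or DESeq2, where 2.98% of 18006 genes were called by edgeR. Of the 10, 2 had an unadjusted p under 0.05, against 16.3% of all genes: Ucp3, at 1.33 ± 0.56 (SE, adjusted p = 0.232), and Gk, at 1.28 ± 0.54 (SE, adjusted p = 0.237). Their 95% intervals ran from 0.16 to 2.49 and from 0.15 to 2.42. For Gamt the difference was -0.72 ± 0.39 (SE, adjusted p = 0.372) and for Atp2a2 it was 0.00 ± 0.26 (SE, adjusted p = 1). So the calls made in WAT and not in striatum are not shown to differ between the tissues, with 2 PTU libraries in striatum. For Ucp1 the difference was 6.54 ± 5.84 (SE, adjusted p = 0.644), resting on at most 2.24 normalised counts in striatum.

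For each gene called in WAT at 6 h or 24 h, the 2 genes with the most similar profile over the 12 WAT libraries were found by Pearson r of log2(normalised count + 1), among 12304 genes with a mean above 100. Group changes and library composition are shared by all these points, so r is a description. Ucp3 was nearest to Tecpr1 (r = 0.978) and Idh3a (0.977), and Ucp2 to Srpk1 (0.957) and Traf1 (0.950). Gk was nearest to Tppp (0.941) and Dio2 (0.925), Pm20d1 to Scd4 (0.919) and Scd3 (0.914), and Gamt to Oaz2 (0.973) and 1700112E06Rik (0.939). Scd3 and Scd4 belong to 1 family of desaturases with similar sequences, whose reads may be shared.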

How the data were processed

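RNA was sequenced from WAT (12 libraries) and striatum (10 libraries). Per tissue the authors deposited a table of raw counts, made with Bowtie (genome GRCm38), a mapping quality cutoff of 10 and htseqcount for the assignment of reads to genes. Annotation release and strand setting are not given in the sources used here. In WAT, 235 pairs of rows agreed within 2% in every library and in striatum 0, and how reads matching several genes were assigned in each table was not tested. No listed gene was in such a pair. Rows that a spreadsheet had turned into dates (15 in WAT, 14 in striatum, at most 0.201% of counts) were left out.

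Tests ran in R 4.3.3 with edgeR 4.0.16 (quasi-likelihood F test, two-sided). The 3 groups of a tissue shared 1 model with TMM scaling, over genes with a mean normalised count above 10, and adjustment followed Benjamini and Hochberg over every gene tested. Called means an adjusted p under 0.05. An SE is the size of the log2 change divided by the root of F, and 95% intervals use the t quantile of the test's degrees of freedom. The difference between tissues was an interaction in 1 fit of 22 libraries. DESeq2 1.42.0, its size factors, no filter on low counts, 2 groups alone, a replicate block, a muscle marker covariate (the mean log2 CPM of 14 genes), copied rows left out, a term for Y-linked counts in striatum and leaving out each library were alternatives, and 1 was added after seeing the data (12 h against PTU in striatum with 24 h replicate 2 left out). No replicates agreed within sampling noise. The scripts were tested on simulated data. Genes beside the 10 members were named by a rule: at most 4 per list with the largest change among those called in WAT at 24 h, at most 2 called at 6 h, and the 2 nearest profiles of each called member. The members and lists were chosen with earlier results of these data known. Promoters are from a set of RefSeq starts, and the set used here had no entry for Atp2a2, Pm20d1 and Slc6a8.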

Additional observations from a re-analysis of the deposited data

Results flagged for a closer look

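Among 55 sets of 4 libraries of 1 group and gene, 3 held a library far from the others, and chance gives about 1 in 20. Atp2a2 in WAT had 3317 normalised counts in PTU replicate 1 against 1844 to 1911 in the other 3. Slc6a8 in striatum had 874 in 12 h replicate 4 against 729.7 to 748. Gatm in striatum had 613 in 24 h replicate 3 against 717 to 737.

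In all, 6 other genes of the pathway lists differed between the tissues in their response at 24 h, WAT minus striatum on the log2 scale, by the interaction test of edgeR. Over all 18006 genes tested, 2.98% were called. In the calcium list 2 of 19 tested were called higher, in the glycerol list 1 higher and 1 lower of 17, and in the thermogenic list 2 higher of 12. The other creatine, N-acyl amino acid and carrier genes had none. Whether these calls hold without single libraries or with a term for Y-linked counts was not examined. In striatum alone that term left 3 genes called at 24 h in place of 55. The striatum side set 4 libraries at 24 h, none with Y-linked counts, against 2 PTU libraries, 1 of them with such counts. Replicate 2 at 24 h had 238 CPM of striatal and 2922 CPM of cortical markers. The study lists no PTU treatment for the striatum animals. Gpd2 differed by 1.80 ± 0.30 (SE, adjusted p = 0.00187), Letm1 by 1.36 ± 0.18 (SE, adjusted p = 2.26e-04) and Itpr2 by 1.09 ± 0.22 (SE, adjusted p = 0.00877). Ppargc1a differed by 1.89 ± 0.24 (SE, adjusted p = 1.75e-04) and Dio2 by 5.82 ± 0.85 (SE, adjusted p = 6.34e-04). Acsl1 went the other way, at -2.08 ± 0.35 (SE, adjusted p = 0.00204). None of the 10 futile cycle genes was among them.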

How the results depend on the processing

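Ucp3 (6 h and 24 h against PTU), and Ucp2 and Gamt at 24 h, were called in all alternatives run in WAT. Apart from leaving out libraries, calls of the 10 genes were lost for Ucp2 at 6 h (2 groups alone, adjusted p = 0.0670; replicate block, adjusted p = 0.0781), Gk at 24 h (2 groups alone, adjusted p = 0.0690) and Ucp3 from 6 h to 24 h (muscle covariate), and gained for Ucp2 in striatum at 12 h (2 groups alone, 1 gene called in place of 0) and Pm20d1 from 6 h to 24 h (muscle covariate). The cause was not tested. The Y-linked term turned the sign of Gamt (0.0853) and Atp2a2 (0.0918) at 12 h and of Gamt (-0.28) at 24 h in striatum, none called. Replicate numbers did not pair the WAT libraries (correlations of residuals from -0.472 to 0.394, 4 of 12 over 0.1), and the block left 2, 5 and 1 of the 10 called at 6 h, 24 h and between the times. In striatum no paired analysis was possible because PTU shared 1 replicate number with each TH group.

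Leaving out 1 library left 1 to 4 of the 10 called at 6 h, 3 to 5 at 24 h, 1 to 1 between the times, and 0 to 0 in striatum and between tissues. Signs turned only in changes that were not called. The ranges were -0.20 to 0.21 for Slc6a8 at 24 h, -0.0305 to 0.19 for Ckb at 6 h, and, between the times, -0.12 to 0.18 for Gatm, -0.67 to 0.0874 for Gk and -0.00106 to 0.43 for Alpl. In striatum they were -0.38 to 0.30 for Alpl, -0.45 to 0.33 for Gamt, -0.24 to 0.26 for Atp2a2 and -0.10 to 0.23 for Gk at 12 h, and -0.33 to 0.46 for Gamt at 24 h. Between tissues they were -0.20 to 0.10 for Gatm, -0.27 to 0.26 for Atp2a2 and -0.38 to 0.0358 for Slc6a8.

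Counts over all genes moved more. DESeq2 called 2145 at 6 h, 2169 between the times, 860 and 203 in striatum and 874 between tissues, against 1296, 1329, 152, 55 and 536. With no filter striatum had 308 and 104. With 2 groups alone there were 834, 2037 (3060 in the shared fit), 2444, 1442 and, at 24 h in striatum, 0 by edgeR (1524 at an unadjusted p under 0.05 and 203 by DESeq2 in the shared fit). Between the times the block gave 778 and the muscle covariate 486. The Y-linked term gave 60 and 3, and leaving 24 h replicate 2 out of the striatum fit gave 1257 at 12 h. Without 1 library the counts were 684 to 1898 at 6 h, 1957 to 4264 at 24 h, 661 to 922 between the times, 0 to 108 and 0 to 115 in striatum and 179 to 882 between tissues. In striatum, with 2 PTU libraries and at most 27.3 normalised counts of Ucp3 or Pm20d1 in a library, the 95% intervals of their 24 h changes were wide (-0.01 to 2.25 and -0.53 to 1.39).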
